A study of Solanum lycopersicum and Solanum pennellii with 32 samples.

Results

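The subject is a set of 182 genes of the cultivated tomato Solanum lycopersicum M82 whose transcripts were abundant in the root midsection, scarce in root tips grown with sufficient phosphate, and higher in root tips grown with limiting phosphate. They are 182 of 34843 gene models (0.522%). A gene was a member when its level, in counts per 1000000 counts of the library (CPM), met 5 conditions on M82 group means. Every limiting tip library lay above every sufficient tip library. The ratio of limiting to sufficient tip was 2 or more, that of limiting to sufficient midsection was below 2, and that of sufficient midsection to sufficient tip was 4 or more, each after adding 1 CPM to both means. The limiting tip mean was 5 CPM or more. Because measured levels chose the members, their rise in M82 tips and their midsection bias at sufficient phosphate are descriptions and no evidence of either.

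The groups were, in M82 and in the wild relative Solanum pennellii LA0716 (Pennellii below), limiting phosphate tip, sufficient phosphate tip, limiting phosphate midsection and sufficient phosphate midsection, with 4 biological replicates of 30 to 40 plants each. Every plant carried the 35S:TRAP construct, in which the 35S promoter, active in most plant cells, drives a tagged ribosomal protein; the labels describe total RNA, so the values are taken as transcript levels and not as ribosome-bound RNA. Seedlings were 8 to 10 days past germination, on a medium with phosphate or, for the limiting groups, with none added. The tip sample was the last 1 cm of the root and the midsection about 2 cm from midway along it.

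A growing root is a record of its own development. Cells divide in the meristem at the tip, lengthen behind it and then mature, so a midsection holds mostly differentiated tissue, with root hairs, working vascular strands and barrier layers, and a tip holds mostly young cells. Plants short of phosphate commonly slow the growth of root axes, form root hairs nearer the tip and switch on genes for phosphate uptake and recycling. In such bulk samples, more cells of a type and more RNA in each cell cannot be told apart.

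The gene IDs are given as deposited. The files pair them with no names, and 0 of them matched the RefSeq table of assembly SLM_r2.1, so no gene is given a name or a function, tissue markers were not analysed here, and no sequence is shown. M82 libraries held 1084652 to 34103546 counts and Pennellii libraries 6225 to 13124725. A Pennellii limiting tip (replicate 3) and a Pennellii sufficient midsection (replicate 1) were identical in every value and both were left out. A pair of further libraries stood apart. In M82, sufficient tip replicate 4 held counts of 117 members, against 160 to 181 in the other sufficient tips. In Pennellii, limiting tip replicate 4 held 10.5% of its counts in midsection-biased genes outside the set, against 3.50% and 3.71% in the other limiting tips.

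As a whole, the 182 genes took 0.991% ± 0.115 of counts in M82 limiting tips and 0.234% ± 0.0489 in sufficient tips, and 2.03% ± 0.155 in limiting and 2.12% ± 0.208 in sufficient midsections (SD, n = 4 each). Limiting tips thus lay between sufficient tips and the midsections. In replicate order, the 182 genes took 0.915%, 0.880%, 1.03% and 1.13% of all counts in the limiting tips and 0.254%, 0.250%, 0.269% and 0.161% in the sufficient tips. In the limiting midsections they took 2.00%, 2.20%, 1.84% and 2.10%, and in the sufficient midsections 1.89%, 2.00%, 2.26% and 2.32%. The tip groups lay far apart, as the choice of members requires, while the midsection groups overlapped. The 10 most abundant members supplied 33.6% of the limiting tip sum, so the sum is weighted toward the abundant members.

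**Figure D1:**
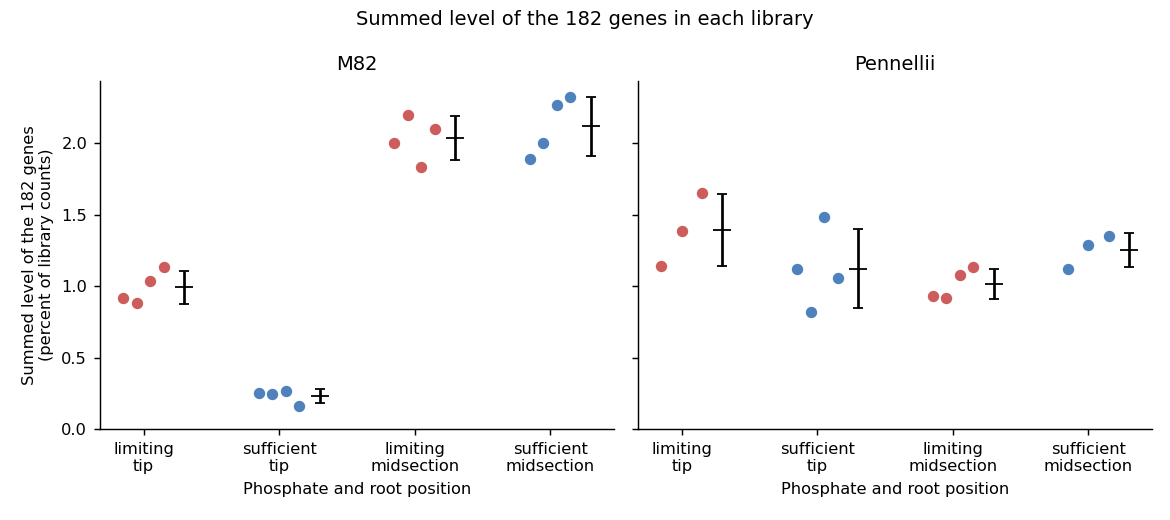
Summed level of the 182 genes as a percent of library counts, by species, phosphate and root position; each point is a library and the bar beside it the mean and SD. In M82 the 4 limiting tips lie at 0.880% to 1.13% and the sufficient tips at 0.161% to 0.269%, while in Pennellii the limiting tips (1.14% to 1.65%) overlap the sufficient tips (0.819% to 1.48%).

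The size of the gain differed widely among members. The median member averaged 27.6 CPM in limiting tips (5.02 to 496.8) and 4.61 CPM in sufficient tips (0.0367 to 213.9), and 52.1 CPM in limiting and 57.2 CPM in sufficient midsections. The lowest limiting tip was a median of 1.66 times the highest sufficient tip, and 2 or more times in 67 members. Sufficient tips varied most, with a median coefficient of variation of 73.9%, against 34.6% in limiting tips. The median ratio of limiting to sufficient tip was 4.22, with quartiles at 2.91 and 7.17 and a highest value of 241.5. The ratio was 2 to 4 in 87 members, 4 to 8 in 57 and 8 or more in 38. Of the members, 31 averaged under 1 CPM in sufficient tips, 73 were listed at 0 in at least 1 sufficient tip, and none was at 0 in any limiting tip. Without sufficient tip replicate 4, the library low in the members, the median ratio was 3.85 and 162 of the 182 kept a ratio of 2 or more.

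In the edgeR quasi-likelihood test over all genes, 101 members were called higher in limiting tips at an adjusted p under 0.05, and none lower, where 1.22% of the 18275 tested genes were called higher and 0.202% lower; all 182 passed the low-count filter. At an unadjusted p under 0.05, 175 were higher and none lower, where 6.53% and 3.92% of all tested genes were. The choice of members used this contrast, so nothing is read from these shares. The calls followed size, with 35 of the 38 members of ratio 8 or more called, 37 of 57 at 4 to 8, and 29 of 87 at 2 to 4. A fit of the tip groups alone called 49 of the 175 members it tested, and 157 genes in all, against 260 in the main fit.

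Solyc03g097500.3.1 was among the most abundant members in limiting tips. It stood at 316, 417, 653 and 561 CPM in limiting tips and at 56.1, 20.7, 41.8 and 39.1 CPM in sufficient tips. Its limiting midsections held 819, 1371, 849 and 988 CPM and its sufficient midsections 658, 719, 504 and 737 CPM. The 2 highest limiting tips thus lay within the range of the sufficient midsections, every limiting tip was below every limiting midsection, and every sufficient tip was far below. The mean was 487 ± 150 CPM in limiting tips and 39.4 ± 14.5 CPM in sufficient tips (SD, n = 4 each), a fitted log2 fold change of 3.59 ± 0.28 (SE).

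Solyc06g007180.3.1 had the highest limiting tip mean of all members but a tip ratio of only 2.32. It stood at 447, 447, 534 and 560 CPM in limiting tips and at 182, 230, 162 and 282 CPM in sufficient tips. In midsections it held 1374, 1136, 1572 and 1796 CPM at limiting phosphate and 1094, 1390, 1797 and 2429 CPM at sufficient phosphate. The limiting tips lay below every midsection library, with a ratio of limiting tip to sufficient midsection of 0.297. Its fitted log2 fold change in tips was 1.13 ± 0.23 (SE).

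Solyc01g095745.1.1 had the largest tip ratio. It held 8439 counts in the 4 limiting tips and 2 counts after rounding in the 4 sufficient tips, both in replicate 4. By summed counts over summed library totals that is a ratio of 7410, with an exact 95% counting interval of 2051 to 61200. It was 1324 without sufficient replicate 2, the deepest library, and at least 4773 without replicate 4. The ratio of the group mean CPM, in which libraries weigh equally, was 810. The interval covers counting error only, and both 810 and 1324 lie below it. The limiting tips stood at 299, 261, 393 and 418 CPM, and the sufficient tips at 2.33e-05, 0.0134, 0 and 1.68 CPM. The limiting midsections held 548, 770, 468 and 727 CPM and the sufficient midsections 651, 546, 617 and 615 CPM, above every limiting tip. Its counts were fractional in 93.8% of the M82 libraries, so reads of this gene may be shared with similar genes and its level is uncertain.

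Solyc02g090210.3.1 had the next largest ratio, from whole counts throughout. It stood at 71.2, 87.6, 125 and 128 CPM in limiting tips and at 2.24, 1.41, 1.29 and 2.13 CPM in sufficient tips. The limiting midsections held 157, 150, 120 and 159 CPM and the sufficient midsections 99.4, 144, 124 and 128 CPM. Limiting tips overlapped both midsection groups, and the fitted log2 fold change in tips was 5.84 ± 0.37 (SE).

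**Figure D2:**
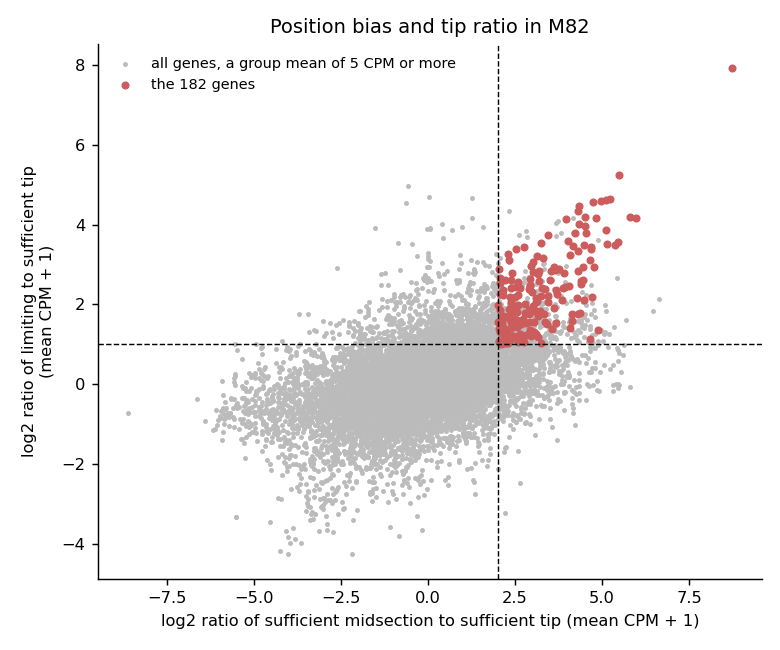
Each grey point is a gene with a mean of 5 CPM or more in some M82 group, and red points are the 182 genes; the x axis is the log2 ratio of sufficient midsection to sufficient tip and the y axis the log2 ratio of limiting to sufficient tip, both of mean CPM + 1. Dashed lines mark the limits of 4 and 2 used to choose the genes. Both axes share the sufficient tip mean as divisor, which by itself tilts the cloud.

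How far limiting tips came toward midsection levels can be read from the ratio of limiting tip to sufficient midsection. Its median was 0.528, with quartiles at 0.371 and 0.736. It was 0.5 or more in 102 members (56.0%), and 21 members stood in limiting tips at or above their sufficient midsection mean. At the other end, 13 members stayed below 0.25. The limiting tip was above the limiting midsection, by group means, in 19 members.

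The difference between positions was smaller at limiting than at sufficient phosphate. The conditions on the tip and midsection ratios require this of every member. The median ratio of midsection to tip was 1.84 at limiting phosphate and 7.78 at sufficient phosphate. At limiting phosphate 42 members were called higher in the midsection than in the tip and none lower (edgeR adjusted p under 0.05). Of all tested genes, 4.27% were called higher and 6.17% lower. At an unadjusted p under 0.05, 79 members were higher and 1 lower, where 9.67% and 11.4% of all tested genes were. DESeq2 called 63 of 181 members higher and none lower, and 2602 genes in all in either direction. This contrast was not itself a condition, but the means of both its groups were used, so the counts are description. Called members were 9 of the 13 that stayed below 0.25 of the sufficient midsection, and none of the 21 at or above it. All limiting midsections lay above all limiting tips in 91 of the 182 members, against 12.7% of genes with a group mean of 5 CPM or more. The count of 42 was 24 and 26 without limiting midsection replicates 2 and 4, and a fit of these groups alone called 90 higher and 1 lower. Calls over all genes moved too, from 1908 in the main fit to 1460 and 1427 without those replicates and 3127 with these groups alone.

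The members with limiting tips furthest above the sufficient midsection were of modest level and uneven. Solyc01g100760.2.1 stood at 22.3, 29.1, 23.4 and 35.9 CPM in limiting tips and at 6.12, 1.79, 0 and 0 CPM in sufficient tips. Its limiting midsections held 19.8, 23.3, 13.5 and 18.8 CPM and its sufficient midsections 43.9, 2.53, 0.461 and 7.94 CPM. The sufficient midsection mean rested on replicate 1, so its midsection bias does too. Counts of this gene were fractional in 43.8% of the M82 libraries, so its reads may be shared with similar genes and its level is uncertain. Solyc08g082560.3.1 stood at 26.0, 4.10, 6.16 and 2.98 CPM in limiting tips, against 0, 0.147, 0 and 0 CPM in sufficient tips. Its limiting midsections held 2.65 to 9.47 CPM and its sufficient midsections 0 to 8.94 CPM, so limiting tip replicate 1 alone was above the midsection range.

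**Figure D3:**
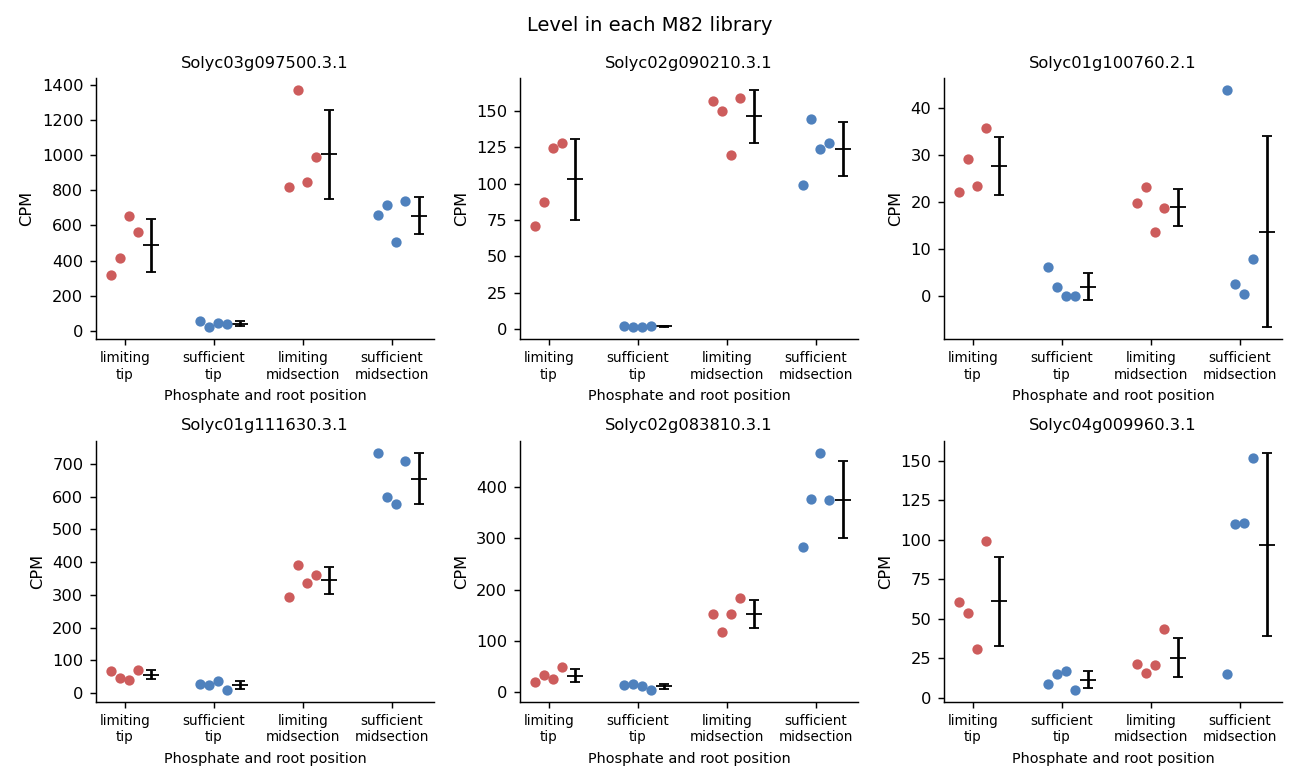
CPM of 6 of the genes in each M82 library, by phosphate and root position; each point is a library and the bar beside it the mean and SD (n = 4). Limiting tips overlap both midsection groups in Solyc02g090210.3.1, and in Solyc03g097500.3.1 they overlap the sufficient midsections and lie below every limiting midsection (means 487 and 1007 CPM), in Solyc01g111630.3.1 and Solyc02g083810.3.1 they lie far below both midsection groups, and Solyc04g009960.3.1 is higher in limiting tips than in limiting midsections by its means (60.9 and 25.2 CPM).

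In midsections the members as a group changed little with phosphate. The median ratio of limiting to sufficient midsection was 0.961, and 127 of 182 lay between 0.667 and 1.5. The rule bars ratios of 2 or more but sets no lower bound, so a lean toward lower values is built in: 101 means were lower at limiting phosphate. All limiting midsections lay below all sufficient ones in 11 members and above in 8, where 4.36% and 7.10% of genes with a group mean of 5 CPM or more did so. The edgeR test called 4 members lower and none higher, where 0.471% of tested genes were called lower and 0.958% higher. At an unadjusted p under 0.05, 13 members were lower and 2 higher, where 4.63% and 6.12% of all tested genes were. DESeq2 called 8 of 181 members lower and none higher, and 574 genes in all in either direction. The count of 4 was 2 without any 1 of limiting midsection replicates 1, 2 and 3 or sufficient midsection replicate 4, and 7 when these groups were fitted alone. Calls over all genes numbered 261 in the main fit, 119 to 156 without those libraries and 439 with these groups alone.

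Those 4 genes, 1 of them named after its values were seen (Solyc11g020040.2.1), changed in opposite directions at the 2 positions by group means. A rise in tips was a condition for every member, so any member lower in midsections shows this pattern. Solyc01g111630.3.1 stood at 67.2, 47.0, 41.0 and 69.0 CPM in limiting tips and at 28.5, 23.6, 38.0 and 9.95 CPM in sufficient tips. Its limiting midsections held 293, 390, 335 and 361 CPM and its sufficient midsections 734, 598, 579 and 708 CPM. The groups overlap at neither position. The fitted log2 fold change was 1.10 ± 0.25 (SE) in tips and -1.01 ± 0.24 in midsections, with an edgeR adjusted p of 0.026 in midsections. This gene and Solyc02g083810.3.1 had the lowest limiting tip levels relative to the sufficient midsection, at ratios of 0.0870 and 0.0874.

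Solyc02g083810.3.1 showed the same arrangement. It stood at 19.4, 33.8, 25.8 and 48.5 CPM in limiting tips, against 14.4, 15.9, 11.6 and 4.98 CPM in sufficient tips. It held 153, 118, 153 and 185 CPM in limiting midsections, against 283, 376, 467 and 375 CPM in sufficient midsections (edgeR adjusted p 0.00589). Solyc11g020040.2.1 averaged 34.7 ± 11.4 CPM in limiting tips and 12.5 ± 3.66 CPM in sufficient tips, and 73.7 ± 20.7 CPM in limiting midsections and 229 ± 79.3 CPM in sufficient midsections (SD, n = 4 each; edgeR adjusted p 0.00297 in midsections). In both genes the 4 limiting libraries lay on 1 side of the 4 sufficient ones at each position.

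Solyc04g009960.3.1 had the lowest ratio of limiting to sufficient midsection, at 0.268. Its limiting midsections stood at 21.2, 15.7, 20.5 and 43.7 CPM and its sufficient midsections at 14.8, 110, 111 and 152 CPM, so sufficient replicate 1 fell below all limiting midsections (edgeR adjusted p 0.0447). In tips it held 60.3, 53.5, 30.5 and 99.0 CPM at limiting phosphate and 8.53, 15.2, 16.7 and 4.98 CPM at sufficient phosphate. Solyc08g083115.1.1 was next, at 25.2, 17.3, 31.7 and 59.8 CPM in limiting midsections and 20.2, 93.0, 166 and 172 CPM in sufficient midsections, and its midsection difference missed the threshold (edgeR adjusted p 0.0656). In tips it held 62.4, 31.8, 53.0 and 55.9 CPM at limiting phosphate and 17.1, 19.7, 29.6 and 6.40 CPM at sufficient phosphate. In both genes the group that decided the ratio held 1 low library, the same sufficient midsection replicate 1.

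**Figure D4:**
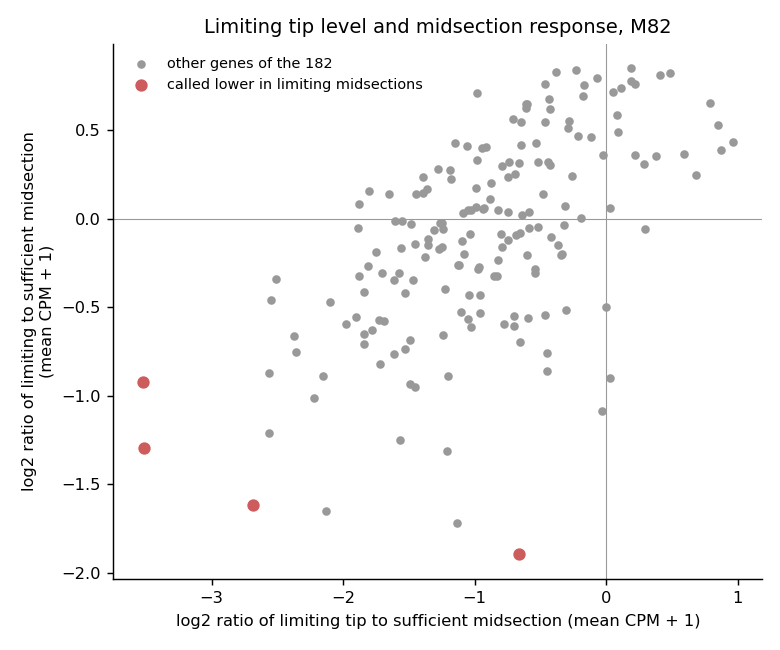
Each point is 1 of the 182 genes; the x axis is the log2 ratio of limiting tip to sufficient midsection and the y axis the log2 ratio of limiting to sufficient midsection, both of mean CPM + 1 in M82, and red points are the 4 genes called lower in limiting midsections. Both axes share the sufficient midsection mean as divisor; the 21 genes right of 0 on the x axis have a median midsection ratio of 1.40 and the 13 with the lowest tip levels one of 0.539.

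Other midsection-biased genes also tended to lie higher in limiting tips. Outside the set, 1255 genes had a sufficient midsection to tip ratio of 4 or more and at least 5 CPM in sufficient midsections or limiting tips. Of these, 1014 had a limiting to sufficient tip ratio above 1. The median was 1.62, against 1.06 over all 16382 genes with a group mean of 5 CPM or more. The ratio was 2 or more in 32.75% of them, against 10.63% of those 16382 genes. Without sufficient tip replicate 4, the median of the 1255 genes was 1.42 and 25.1% stood at 2 or more. Their summed share was 2.58% ± 0.206 of counts in limiting tips and 1.60% ± 0.320 in sufficient tips (SD, n = 4 each), and 8.34% ± 0.460 in limiting and 12.05% ± 1.34 in sufficient midsections. Genes with the opposite bias, 1521 with a sufficient tip to midsection ratio of 4 or more, had a median tip ratio of 0.672, and took 10.5% ± 0.665 of counts in limiting tips and 15.3% ± 2.34 in sufficient tips. The bias of these lists was taken from the sufficient libraries, which by itself moves the limiting values toward the other position. Limiting values also shaped the list of 1255 genes, through the 5 CPM condition and the removal of the members. The part of these lists in the members' gain was not tested. The members' median ratio of limiting to sufficient midsection was 0.961 and that of the other midsection-biased genes 0.577. The bound of 2 on that ratio was a condition for members only, and it can only lower their median. These 2 lists also differ in the level and tip conditions, and the difference in midsections was not tested.

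Membership moved with single libraries. When the same conditions were applied without 1 limiting tip, 209 to 239 genes met them, and in 76.2% to 86.1% of those the library left out also lay above all sufficient tips, where 20.1% to 26.3% of genes with a group mean of 5 CPM or more did so. Without 1 sufficient tip, 164 to 294 genes met them, and the library left out lay below all limiting tips in 69.1% to 90.9%, where 19.5% to 45.7% of all such genes did. The count of 164 came without sufficient tip replicate 4 and shared 145 genes with the 182, and 294 came without replicate 2. These shares are description: the genes were chosen on the same group with which the left-out library is compared, which by itself raises the share, so the share over all genes is not the level to be met without a difference.

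At the limits, the member nearest the tip ratio of 2 stood at 2.00 (Solyc11g020780.2.1) and the nearest gene outside at 1.98. For the midsection to tip ratio of 4 these values were 4.05 and 3.94, for the midsection ratio of 2 they were 1.80 and 2.03, and for the limiting tip mean they were 5.02 and 4.86 CPM. A further 246 genes met every numeric limit but had tip groups that overlapped. Of members, 47 (25.8%) had a fractional count in some M82 library, as did 21.5% of all genes. By the chromosome number in their IDs, the members came from chromosomes 1 to 12, at 3.57 to 7.14 per 1000 gene models, and 6 pairs of members were neighbours in ID order.

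Pennellii gives values that the choice of members did not use. There the summed share of the 182 genes in sufficient tips overlapped that in sufficient midsections. They took 1.14%, 1.38% and 1.65% of counts in limiting tips and 1.12%, 0.819%, 1.48% and 1.06% in sufficient tips, in replicate order. They took 0.932%, 0.916%, 1.08% and 1.13% in limiting midsections and 1.12%, 1.29% and 1.35% in sufficient midsections. The limiting and sufficient tips overlapped, and at limiting phosphate every tip lay above every midsection, by a small margin. By the name of the deposited table, Pennellii reads were mapped to M82, so levels are not compared between the species, and a difference between the species was not tested.

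Of the members, 154 passed the low-count filter in Pennellii and 28 did not. In tips, 1 member was called higher at limiting phosphate and none lower (edgeR adjusted p under 0.05). Of 13450 tested genes, 0.305% were called higher and 0.379% lower. At an unadjusted p under 0.05, 16 members (10.4%) were higher and 5 (3.25%) lower, against 9.56% and 3.99% of all tested genes. DESeq2 called none of 149 members, and 60 genes in all. The members' median fitted log2 fold change was 0.56 and that of all tested genes 0.51. The members' shares and median were thus close to those of all genes. The called gene, Solyc02g083810.3.1, stood at 3.41, 47.1 and 750 CPM in limiting tips and at 4.47, 21.7, 11.3 and 161 CPM in sufficient tips. The groups overlap, the high value is limiting replicate 4, and the call (edgeR adjusted p 0.037) was lost without that library.

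**Figure D5:**
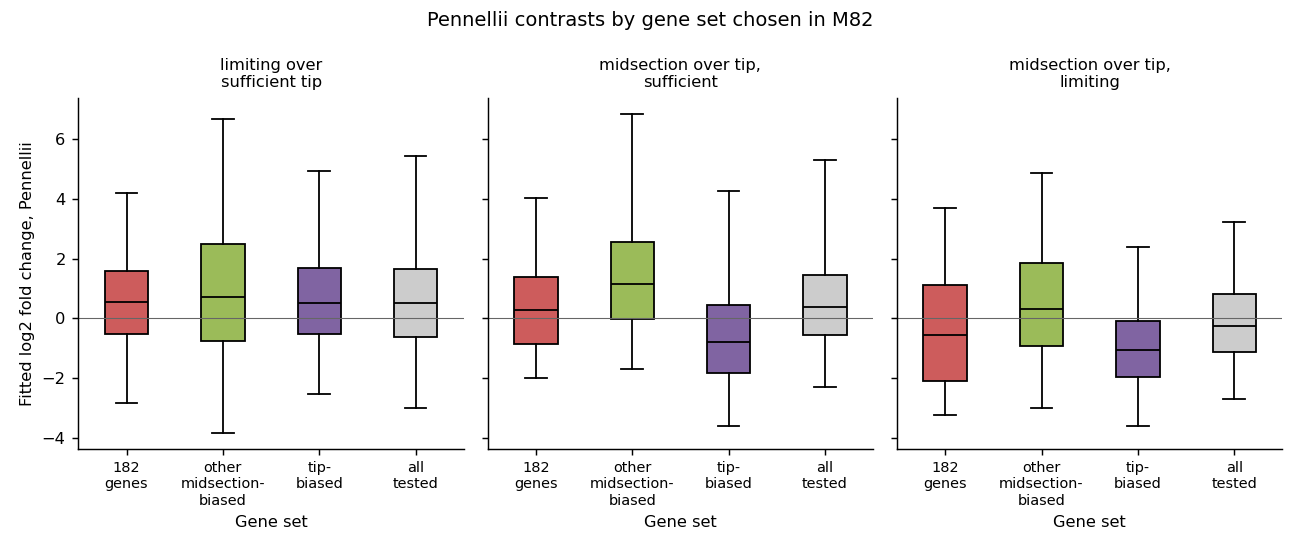
Fitted log2 fold changes in Pennellii for the 182 genes (154 tested), the other midsection-biased genes of M82, the tip-biased genes of M82 and all tested genes, in 3 contrasts; boxes span the quartiles with the median, and whiskers the 5th to 95th percentiles. In sufficient roots the other midsection-biased genes have a median of 1.15 and the tip-biased genes one of -0.78, while the 182 genes, at 0.28, lie near the median of all tested genes, 0.38.

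The edgeR test called few genes of any set between midsection and tip in Pennellii. Of the 813 other midsection-biased genes it called 2 higher in sufficient midsections, so a lack of calls is not read as a lack of bias. At sufficient phosphate no member was called between midsection and tip in either direction (edgeR adjusted p under 0.05). Of all tested genes, 0.0223% were called higher in the midsection and 0.216% lower. At an unadjusted p under 0.05, 9 members (5.84%) were higher in midsections and 2 (1.30%) lower, against 7.57% and 2.53% of all tested genes. DESeq2 called none of the 47 members to which it gave an adjusted p, and 30 genes in all. Of the 154, 81 (52.6%) had a higher fitted level in the midsection, against 61.3% of tested genes that reached 5 CPM in M82 and 74.7% of the 813 other midsection-biased genes. The median fitted log2 fold change was 0.28 in the members, 1.15 in the other midsection-biased genes and 0.38 in all tested genes.

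At limiting phosphate, 60 of the 154 members (39.0%) had a higher fitted level in the Pennellii midsection than in the tip. The share was 42.9% of tested genes that reached 5 CPM in M82. It was 39.6% of 164 tested genes that met the other conditions in M82 but had a sufficient midsection to tip ratio below 4. All 217 such genes had a median of 2.15 for that ratio in M82, so many lean to the midsection. None was called between positions (edgeR adjusted p under 0.05; 0.238% of tested genes were higher in the midsection and 0.0818% lower). At an unadjusted p under 0.05, 28 members (18.2%) were lower in midsections than in tips and 13 (8.44%) higher, against 4.27% and 4.91% of all tested genes. DESeq2 called 3 higher and 1 lower of the 134 members to which it gave an adjusted p, and 115 genes in all. The median fitted log2 fold change of midsection over tip was -0.56 in the members and -0.24 in all tested genes. It was -0.32 in the tip risers with an M82 sufficient midsection to tip ratio below 4. Whether the members differ from these sets was not tested.

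The Pennellii values are also given by classes of M82 tip ratio, as a description with no test of a difference between classes. In libraries of at least 100000 counts, 165 members reached 5 CPM in some Pennellii group, and ratios were again of means plus 1 CPM. Among the 34 with an M82 tip ratio of 8 or more, the median Pennellii ratio of midsection to tip was 0.234 at limiting and 0.552 at sufficient phosphate. Leaving out any 1 of these libraries gave 0.108 to 0.308 at limiting and 0.451 to 0.801 at sufficient phosphate. At limiting phosphate 27 of the 34 were at 0.5 or less and 2 at 2 or more. Over all 14583 genes of that level that reached 5 CPM in M82, 28.1% were at 0.5 or less and 21.5% at 2 or more, with medians of 0.868 at limiting and 1.14 at sufficient phosphate. Among the 81 with an M82 ratio of 2 to 4, the medians were 1.49 at limiting and 1.76 at sufficient phosphate, and at limiting phosphate 14 were at 0.5 or less and 30 at 2 or more. For these 81 the limiting median was 0.753 without limiting midsection replicate 4, and the sufficient median was 4.21 without sufficient tip replicate 3. The 50 between had medians of 0.753 at limiting and 0.662 at sufficient phosphate, and that of sufficient phosphate was 1.99 without sufficient tip replicate 3. The classes were drawn after the values were known, and only 2 sufficient tips reached 100000 counts.

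Genes with large M82 tip ratios had these Pennellii levels. Solyc02g090210.3.1 stood in Pennellii at 323, 411 and 682 CPM in limiting tips and at 330, 934, 269 and 0 CPM in sufficient tips, the last in a library of 6225 counts. It held 125, 131, 25.9 and 58.5 CPM in limiting midsections and 30.1, 105 and 118 CPM in sufficient midsections. Apart from that shallow library, every Pennellii tip was above every midsection, and its fitted log2 fold change of midsection over tip was -2.70 ± 0.91 (SE) at limiting phosphate, with an edgeR adjusted p of 0.197.

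Solyc03g097500.3.1 stood at 542, 632 and 1085 CPM in Pennellii limiting tips and at 502, 152, 797 and 321 CPM in sufficient tips. It held 494, 29.1, 233 and 88.6 CPM in limiting midsections and 170, 244 and 237 CPM in sufficient midsections. Every limiting tip was above every limiting midsection, while the sufficient groups overlapped, and the difference at limiting phosphate missed the threshold (edgeR adjusted p 0.388).

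Solyc01g095745.1.1 stood at 403, 822 and 974 CPM in Pennellii limiting tips and at 746, 10.9, 680 and 74.5 CPM in sufficient tips. It held 205, 109, 43.2 and 32.1 CPM in limiting midsections and 297, 201 and 149 CPM in sufficient midsections. At limiting phosphate all tips lay above all midsections (log2 fold change of midsection over tip -3.02 ± 0.89, SE, edgeR adjusted p 0.095), and at sufficient phosphate the 2 deeper tips did, while those of 46018 and 6225 counts were lower. All Pennellii libraries had fractional counts of this gene (100%).

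Other members had their highest Pennellii levels in sufficient midsections by group means. Solyc01g111630.3.1, among the 2 highest members in the deeper Pennellii libraries, stood at 349, 401 and 1296 CPM in limiting tips and at 361, 65.2, 507 and 161 CPM in sufficient tips. It held 342, 640, 233 and 766 CPM in limiting midsections and 620, 845 and 659 CPM in sufficient midsections. Sufficient midsections lay above all sufficient tips, by a fitted log2 fold change of 1.37 ± 0.81 (SE) that missed the threshold (edgeR adjusted p 0.625). Solyc06g007180.3.1, the other of those 2, stood at 964, 1376 and 1743 CPM in sufficient midsections and at 795, 152, 944 and 643 CPM in sufficient tips. It held 480, 29.1, 492 and 754 CPM in limiting midsections and 612, 458 and 711 CPM in limiting tips, which overlapped.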

How the data were processed

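Root RNA was extracted as total RNA and made into strand-specific 3-prime BrAD-seq libraries read at 50 bases, per the labels' protocols. The authors deposited estimated counts per gene model, mostly whole and in part fractional. No label or header used here names the program behind the fractions, the genome build or the annotation. The submitters' processing notes name FastQC, Bowtie 1.2.2, edgeR and limma. Described levels are CPM by column totals, and ratios add 1 CPM to both means. Tests used counts rounded to whole numbers in edgeR 4.0.16 (R 4.3.3): quasi-likelihood F test, TMM, filterByExpr (minimum count 10, total 15), Benjamini-Hochberg over all genes tested, threshold 0.05, 1 fit per species. The procedure was tested on simulated data. Alternatives were DESeq2 1.42.0, RLE scaling, no filter, fits of the compared groups alone, a replicate block and leaving out libraries. Intervals cover counting error only. The SE of a fitted log2 fold change was worked back as its size over the square root of the F statistic, and is not a standard error given by the fit. The members and lists were chosen with earlier results of these data known. Genes were named by rule: up to 2 at the ends of the orders of limiting tip level, tip ratio, tip level relative to midsection, midsection ratio and Pennellii level, and Pennellii calls. Planned gene lists and markers need gene names and were not analysed here. A pair of identical Pennellii columns was left out, leaving 30 libraries.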

Additional observations from a re-analysis of the deposited data

Results flagged for a closer look

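In 66 groups of 4 libraries examined for the named genes, 4 held a library far from the others. The limit used is passed by about 1 in 20 groups of normally distributed values, and values of a few counts are not such values. Solyc01g095745.1.1 stood at 1.68 CPM in M82 sufficient tip replicate 4, with the other 3 near 0. Solyc08g082560.3.1 stood at 26.0 CPM in limiting tip replicate 1, against 2.98 to 6.16 CPM in the other limiting tips, and at 0.147 CPM in sufficient tip replicate 2, with the others at 0. In M82 sufficient tips, 3 counts amount to 2.13 CPM in replicate 4 and to 0.673 CPM or more outside replicate 2. The value of 1.68 CPM lies below the first of these and that of 0.147 CPM below the second, so depth limits both comparisons. Solyc11g020780.2.1 stood at 2.84 CPM in sufficient tip replicate 4, against 25.1 to 26.2 CPM in the other sufficient tips, and this gene has the tip ratio nearest the limit, 2.00.

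In 3 genes every limiting library lay above every sufficient one in M82 tips and below every sufficient one in midsections. The ratio of limiting to sufficient midsection was 0.527 in Solyc01g111630.3.1, 0.408 in Solyc02g083810.3.1 and 0.325 in Solyc11g020040.2.1. The difference between the positions was not tested, and the rise in tips was a condition for choosing these genes.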

How the results depend on the processing

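The number of genes chosen was 89 with a midsection to tip ratio of 8 or more, and 164 to 294 when 1 M82 library was left out. With only the compared groups in the fit, members called numbered 49 in M82 tips, 7 in M82 midsections and 91 between limiting positions. Over all genes these fits called 157, 439 and 3127, against 260, 261 and 1908 in the main fit. DESeq2 called 8 members in M82 midsections, and 574 genes in all. Leaving out 1 library gave 73 to 91 members in M82 tips, 2 to 5 in midsections and 24 to 31 between limiting positions. In Pennellii tips, RLE scaling, DESeq2, the compared groups alone and the replicate block each called 0 members, and no filter called 2 (1 higher, 1 lower). Leaving out 1 library gave 0 to 2 there, and the 1 call was lower, in place of higher, without sufficient tip replicate 1 and without replicate 3. At limiting phosphate in Pennellii, RLE scaling called 1 member, no filter 1, DESeq2 4 and deeper libraries alone 2, and leaving out 1 library 0 to 2. Over all genes, RLE scaling called 100, no filter 164, DESeq2 115 and deeper libraries alone 33. The cause of these changes was not tested. Within the comparisons tested, deviations of same-numbered libraries correlated at -0.032 to 0.215, with 1 pair above 0.1; over all pairs of groups 3 were above 0.1 (0.215, 0.17 and 0.138, all in Pennellii) and the lowest was -0.063. In no comparison were all pairs above 0.1, so the numbers were not taken to pair the libraries; the replicate block gave 96, 4 and 39 calls in M82 and 0 in the other Pennellii comparisons. Libraries correlated best with their own number in 5 of 8 (M82 tips), 0 of 8 (M82 midsections) and 7 of 8 (M82 limiting positions). In Pennellii this held in 0 of 6 (tips), 4 of 6 (sufficient positions) and 2 of 6 (limiting positions). The block joined a number across all groups of a species, so a pairing of tip and midsection within a phosphate level was not modelled and is not excluded. Depth is a limit in Pennellii, with 6225 counts in 1 sufficient tip.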
